A study of Mus musculus with 2 samples.

Results

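The 300 peaks described here were regions called in a Notch1 immunoprecipitation that touched an exon of a protein-coding gene at a distance from any promoter. They were taken from 5910 peaks on nuclear chromosomes of mouse build mm10, a share of 5.08% (Wilson 95% interval 4.55% to 5.67%). A peak was included if it overlapped by at least 1 bp an exon of any transcript of a protein-coding gene in GENCODE release M21 and stayed clear of every start site of such a gene by 1 kb in each direction. The choice used positions only and no measured signal. The other nuclear peaks were 1173 at promoters, 1907 in introns and 2530 between genes. A promoter here means 1 kb either side of the start of any transcript of a protein-coding gene, so it can lie within a gene. Exons under peaks at promoters were left out by the rule, and 658 of the 1173 promoter peaks (56.1%) also lay over an exon.

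The peaks came from chromatin immunoprecipitation followed by sequencing (ChIP-seq) with a rabbit monoclonal antibody against Notch1 (D1E11, Cell Signaling Technology). The material was primary gamma delta T cells, lymphocytes whose antigen receptor pairs a gamma with a delta chain, isolated from thymus. The mice were of the C57BL/6 strain, wild type in genotype, and aged 0 to 3 days after birth. There was 1 Notch1 library and 1 input library without antibody, with the same strain, genotype, age and tissue, and the stated purpose was to find binding sites of the Notch1 intracellular domain (ICN1). The input is not analysed here, and the labels give neither the number of mice nor the read depth, so the precision of a single peak is unknown. With 1 library no test between conditions or animals could be made. All values below describe this peak list, the intervals cover counting error only, and peaks in 1 gene are not replicates of each other.

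Notch1 is a receptor on the cell surface that is cut after it meets a ligand on a neighbouring cell. The freed intracellular domain moves to the nucleus, where it joins the DNA-binding protein RBPJ and Mastermind coactivators on sites with the core TGGGAA and switches on transcription of target genes. Early thymocytes depend on this pathway to enter the T lineage. Exons carry the coding sequence and the untranslated regions (UTRs) of the mRNA, and a ChIP-seq peak that touches an exon often also covers flanking intron.

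The first sequences show where the longer RBPJ site GTGGGAA lay within exonic peaks, because this string is the closest match to the preferred site of the factor that brings ICN1 to DNA. It was held by 30 of the 300 exonic peaks (10%, Wilson 95% interval 7.09% to 13.9%), against 7.68% of all nuclear peaks. Shown are the 8 of these peaks with the highest scores and 4 at regulators named below, each as a window of 30 bases on the strand that reads GTGGGAA. Capitals mark the string. Sequence and coordinates are GRCm38 (mm10) reference sequence from RefSeq.
Gm10801, chr2:98663872-98663901, minus strand: aactgaaaaagGTGGGAAatttagaaatgt
Hist1h1c, chr13:23740533-23740562, plus strand: aagtgtttaacGTGGGAAagccagatcaga
Bend4, chr5:67393728-67393757, plus strand: agtaatttagtGTGGGAAttccagttctcc
St8sia4, chr1:95621474-95621503, plus strand: ttatagtcccaGTGGGAAatgagtaggagc
Zbtb33, chrX:38195002-38195031, minus strand: cacagcattttGTGGGAAcgttttcataat
Arrdc3, chr13:80895954-80895983, plus strand: aagaaaaccatGTGGGAAatgatttaactt
Rab3ip, chr10:116914056-116914085, minus strand: caccacgccctGTGGGAAgagcgcgctctt
Kcnh6, chr11:106027406-106027435, plus strand: tgtggatcctaGTGGGAAaaattgcttcag
Tcf12, chr9:71846143-71846172, minus strand: gaaaagttcatGTGGGAAgctgatgtacac
Kdm6b, chr11:69408884-69408913, minus strand: gtggaccctagGTGGGAAccttggggtcac
Myb, chr10:21126240-21126269, minus strand: gccagcatcctGTGGGAAgacagaggacca
Tnfaip3, chr10:19001453-19001482, minus strand: gtgaggtgacaGTGGGAAgggacacaacta
In the reference, the site of Bend4, St8sia4, Zbtb33, Arrdc3, Tcf12 and Tnfaip3 lay in a 3′ UTR. The site of Gm10801 and that of Myb lay in coding sequence. The sites in the peaks of Hist1h1c, Rab3ip, Kcnh6 and Kdm6b lay outside any exon, within the intronic or flanking part of the peak. A match is only a match of letters and does not show that RBPJ was bound there.

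The second set shows how peaks sat on coding exons. These are the coding peaks of Satb1, Tnk2, Dhx9 and Il12rb2 and the central 300 bases of the Foxp1 peak, written on the strand of the gene. Capitals mark coding bases and lower case marks intron.
Satb1, chr17:51740056-51740310, minus strand: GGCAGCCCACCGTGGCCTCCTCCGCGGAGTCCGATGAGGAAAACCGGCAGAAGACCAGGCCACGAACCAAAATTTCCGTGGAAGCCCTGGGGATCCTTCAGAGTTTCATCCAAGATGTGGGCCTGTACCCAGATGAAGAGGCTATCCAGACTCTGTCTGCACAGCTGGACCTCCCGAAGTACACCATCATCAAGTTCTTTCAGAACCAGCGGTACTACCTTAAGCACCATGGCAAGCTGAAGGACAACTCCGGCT
Tnk2, chr16:32679448-32679644, plus strand: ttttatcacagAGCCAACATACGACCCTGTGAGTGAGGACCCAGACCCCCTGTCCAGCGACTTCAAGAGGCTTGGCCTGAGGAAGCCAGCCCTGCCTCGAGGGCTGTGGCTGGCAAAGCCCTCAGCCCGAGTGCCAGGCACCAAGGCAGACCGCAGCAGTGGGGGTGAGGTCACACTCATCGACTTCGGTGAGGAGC
Dhx9, chr1:153467030-153467243, minus strand: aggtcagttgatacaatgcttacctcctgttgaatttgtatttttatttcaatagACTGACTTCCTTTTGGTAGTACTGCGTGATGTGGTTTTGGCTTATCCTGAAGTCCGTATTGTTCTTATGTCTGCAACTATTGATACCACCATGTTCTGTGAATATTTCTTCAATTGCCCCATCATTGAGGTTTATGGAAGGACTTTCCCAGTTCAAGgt
Il12rb2, chr6:67308826-67309093, minus strand: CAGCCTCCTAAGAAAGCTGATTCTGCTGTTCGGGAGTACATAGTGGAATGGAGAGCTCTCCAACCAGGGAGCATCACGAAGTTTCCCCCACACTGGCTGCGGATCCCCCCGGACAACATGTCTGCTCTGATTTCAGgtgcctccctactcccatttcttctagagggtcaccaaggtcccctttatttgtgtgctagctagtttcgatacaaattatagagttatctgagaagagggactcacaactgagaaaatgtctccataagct
Foxp1, chr6:98944589-98944888, minus strand: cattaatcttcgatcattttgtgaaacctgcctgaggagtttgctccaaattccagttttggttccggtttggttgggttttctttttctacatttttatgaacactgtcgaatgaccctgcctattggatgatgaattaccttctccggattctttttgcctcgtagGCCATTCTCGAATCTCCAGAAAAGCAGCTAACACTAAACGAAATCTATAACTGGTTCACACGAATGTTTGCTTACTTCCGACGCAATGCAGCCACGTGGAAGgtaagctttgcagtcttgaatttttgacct
The Satb1 peak consisted of coding bases alone, 255 of 255. The Tnk2 peak held 186 coding bases of 197 and began in the intron just upstream of its exon. Dhx9 and Foxp1 show a more common arrangement, in which a short exon of 157 and 102 bp lay whole inside the peak with intron on each side. At least 1 whole exon lay inside 54 of the 123 coding peaks, while 7 were wholly exonic. The Il12rb2 peak started inside exon 10 of 16 and ran on into the intron, with 136 coding bases.

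By the longest overlap, 126 exonic peaks (42.0%, Wilson 95% interval 36.6% to 47.7%) lay mainly on a 3′ UTR and 123 (41.0%, 35.6% to 46.6%) on coding sequence. Another 43 (14.3%) lay mainly on exonic bases found only in transcripts of protein-coding genes that are not themselves of the protein-coding type. This part is called other transcript below. A further 8 (2.67%) lay mainly on a 5′ UTR. The exonic sequence outside promoter windows totalled 69.9 Mb, of which 44.0% was 3′ UTR, 36.5% coding, 18.5% other transcript and 0.975% 5′ UTR. The shares of peaks on 3′ UTR, coding sequence and other transcripts had intervals that include the shares of the annotation. The measures are unlike, because a peak counts whole at 1 bp of overlap and the annotation is counted in bases. Neither a match nor an excess can therefore be read from these intervals. The interval of the 8 peaks on 5′ UTRs, 1.36% to 5.17%, lay above the 0.975% of the annotation, with 11.7 peaks per Mb of 5′ UTR, against 4.29 per Mb of all exonic sequence. The measures are unlike here too, so no excess can be read from these 8 peaks. Of these 8, 3 lay within 1 kb of a RefSeq mRNA start (37.5%, against 4% of all 300), and 2 were less than 10% exonic. Counted in bases the balance differed. Of the exonic bases inside the peaks, 56.0% were 3′ UTR, against 44.0% of the annotation, and 23.8% coding, against 36.5%. Other transcripts made up 18.2%, against 18.5%, and 5′ UTRs 2.04%, against 0.975%.

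**Figure D1:**
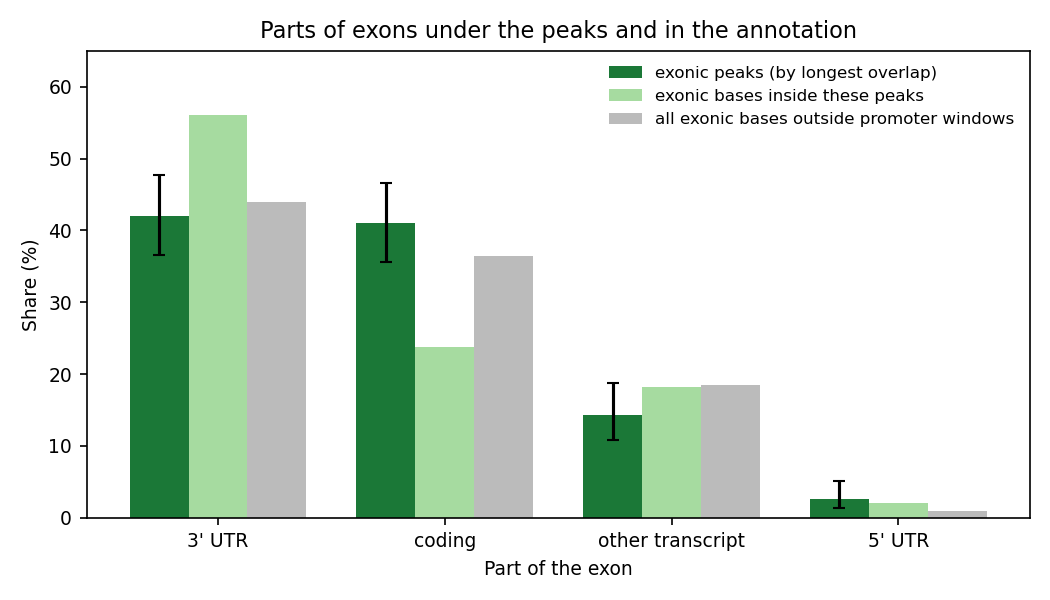
Share in percent of each part of the exon, for the exonic peaks by longest overlap (dark green, bars show Wilson 95% intervals, n = 300), for the exonic bases inside them (light green) and for all exonic bases outside promoter windows (grey). Coding sequence held 41.0% of the peaks but 23.8% of the exonic bases inside peaks, and 3′ UTRs held 42.0% and 56.0%.

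The difference between the shares of peaks and of bases went with how the peaks fitted the exons. Peaks on 3′ UTRs lay on long exons, with a median of 2537 bp, and 87 of 126 were wholly exonic. Coding peaks lay on short exons, with a median of 136 bp, and only 7 of 123 were wholly exonic. The median exonic share of the peak was 100% on 3′ UTRs and 32% on coding sequence. In 54 of the 123 coding peaks (43.9%) at least 1 whole exon of the principal transcript lay inside the peak, against 0 of the 126 on 3′ UTRs.

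The midpoint of the peak fell in an exon for 104 of 126 peaks on 3′ UTRs (82.5%, Wilson 95% interval 75% to 88.2%) and for 50 of 123 coding peaks (40.7%, 32.4% to 49.5%). Most coding peaks were thus centred outside an exon. The rule takes any overlap of 1 bp, and the median coding peak, at 368 bp, was wider than the median exon touched, at 136 bp. These shares therefore show no preference of the peaks for a place beside the exon. At least 1 end of the peak came within 10 bp of an exon end in 30 coding peaks, and both ends did in 1. Over all 300 exonic peaks the midpoint was exonic in 194 (64.7%), and 23 peaks (7.67%) were less than 10% exonic.

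Exonic peaks lay mostly in the later part of the gene. The rule removes sequence around starts, and 44.0% of the exonic sequence left was 3′ UTR. Where that sequence lies along genes was not computed, so no lean of the peaks beyond it can be read. In the principal transcript of the host gene, 118 touched the last exon, 113 an internal exon, 6 the exon of a single-exon gene and 0 the first exon, which the exclusion of promoter windows makes rare by construction. The remaining 63 touched exons that the principal transcript does not use. The midpoint lay at a median of 77.6% of the gene's length from its start, with quartiles of 51.6% and 95.3%. For peaks on 3′ UTRs this median was 96.1%, and 57 of 126 had their midpoint within 1 kb of the annotated end of the gene.

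The distance to the nearest protein-coding start had a median of 5.53 kb, against 13.1 kb for intronic peaks. To RefSeq mRNA starts the medians were 10132 bp and 21700 bp. Starts of transcripts that begin within a gene count here, so a short distance need not mean the beginning of the gene. The Satb1 peak lay 1956 bp from a start of Satb1, with its midpoint 93107 bp into the gene. Of the exonic peaks, 140 (46.7%, Wilson 95% interval 41.1% to 52.3%) lay within 5 kb of a start, against 26.4% of intronic and 34.5% of all nuclear peaks, a share that includes promoter peaks. Farther out, 101 (33.7%) lay over 10 kb from a start, against 57.3% of intronic and 55.8% of all nuclear peaks, and 12 (4%) over 50 kb, against 19.2% and 29.8%. Starts of genes of other types, such as non-coding RNA genes, lay within 1 kb of 7 exonic peaks (2.33%), against 14.7% of promoter, 3.46% of intronic, 5.93% of intergenic and 6.70% of all nuclear peaks. RefSeq mRNA starts lay within 1 kb of 12 (4%), against 2.25% of intronic and 0.672% of intergenic peaks. Over all nuclear peaks this share was 17.0%, which includes the promoter peaks that the rule leaves out. At the inner limit of the rule stood the peak of Dlg1, a scaffold protein at cell contacts, 1003 bp from a start, and that of Hist1h1c, 1017 bp away. Just outside it were promoter peaks over exons of Ptpra, 991 bp away, and Hbegf, 983 bp away. The smallest exonic overlaps were 1 bp in Sfi1, 3 bp in Blk, 4 bp in Rab11fip3 and 5 bp in Kdm1a.

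Each peak carries a score that the authors deposited and whose scale is not given in the sources used here, so it serves only to rank peaks within this list. Exonic peaks had a median score of 711 (quartiles 639 and 929), against 749 at promoters, 707 in introns, 714 between genes and 718 over all nuclear peaks. A score of 1000 or more was reached by 60 exonic peaks (20%, Wilson 95% interval 15.9% to 24.9%), against 17.8% of all nuclear peaks, and a score of 1500 or more by 13 (4.33%), against 4.35%. The medians by part were 713 on 3′ UTRs, 713 on coding sequence, 698 on other transcripts and 687 on 5′ UTRs. The 95% interval of the exonic median, 690 to 741, included the median of all nuclear peaks but not that of promoter peaks.

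**Figure D2:**
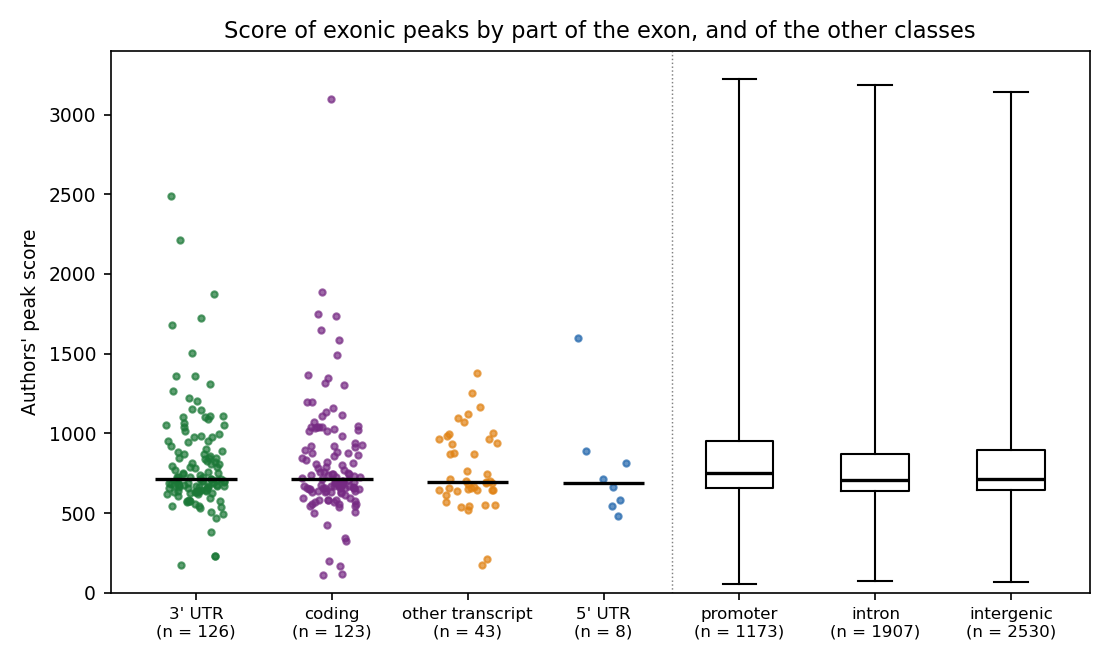
Authors' peak score (linear axis, no stated unit) of every exonic peak by part of the exon (points, line at the median) and of promoter, intronic and intergenic peaks (box from lower to upper quartile, line at the median, whiskers to the lowest and highest peak). The medians of the exonic parts run between 687 and 713, and that of promoter peaks is 749.

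Width and score were tied. The median width was 376.5 bp, against 370 bp for all nuclear peaks, and 35 exonic peaks (11.7%) were under 250 bp wide, against 9.70% of all nuclear peaks. Over 500 bp were 22 (7.33%), against 5.53%. Among exonic peaks, 157 (52.3%) had exactly the same width and the same score, to 2 decimals, as another peak of the list, against 46.4% of promoter, 55.3% of intronic, 59.4% of intergenic and 55.1% of all nuclear peaks. The list holds no reads, so whether peaks that share both values are small stacks of reads or bound sites was not tested, and this holds for every exonic peak named. For 260 exonic peaks (86.7%, the same share as in all nuclear peaks, 86.7%) the list held a commonest score at their width, shared by at least 3 peaks. Of the 300, 90 had that score (30%, against 33.7% of all nuclear peaks), 57 lay above it (19%, against 18.7%) and 113 below it (37.7%, against 34.4%). Narrow peaks took the higher values: 32 of the 60 exonic peaks with a score of 1000 or more were under 250 bp wide (53.3%), against 21.3% of promoter, 48.5% of intronic and 48.9% of intergenic peaks with such a score. A high score on a narrow exonic peak thus often equals what the list gives to peaks of that width, and Slc38a8, Ak6 and Fermt1 were examples, at 1358.35, 1344.22 and 1316.06.

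**Figure D3:**
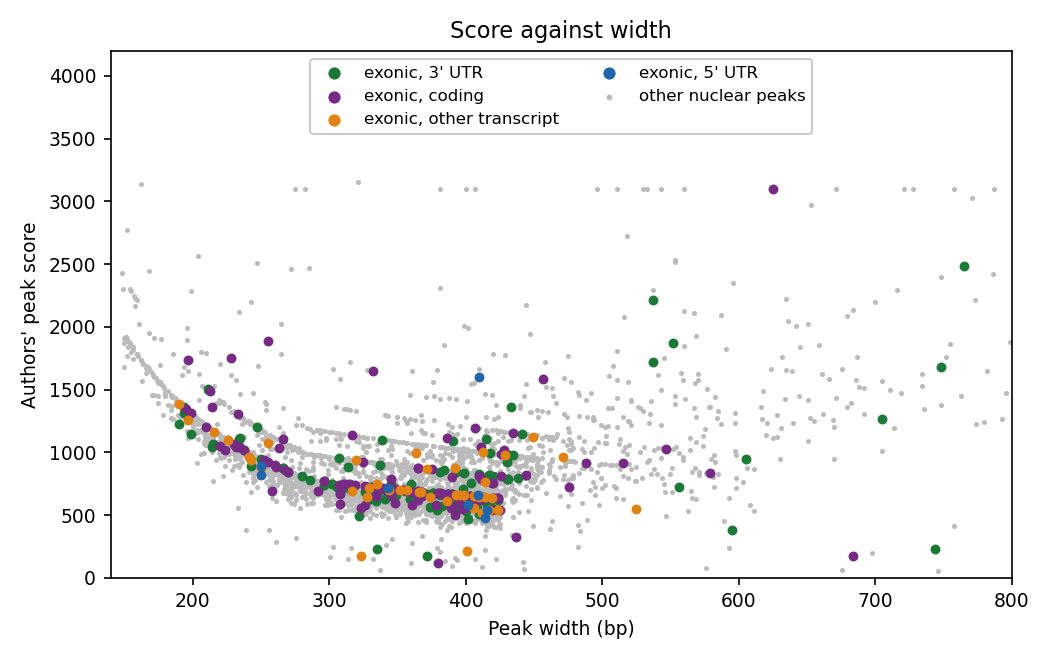
Authors' peak score against peak width in bp (both axes linear, width shown up to 800 bp) for exonic peaks coloured by part of the exon and for the other nuclear peaks in grey. Peaks form narrow bands in which score falls as width grows; 6 exonic and 78 other peaks are wider than the axis.

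The highest score of an exonic peak, 3100, belonged to Gm10801, a predicted gene on chr2:98663562-98664186, and 36 nuclear peaks shared that value. Of its 32-base strings, 29.6% occurred more than once in the assembly, and 48.8% of its bases were soft-masked as repeats. Hist1h1c, which encodes the linker histone H1.2, followed at 2488.56. Its peak on chr13:23739825-23740589 covered 543 bases of the annotated 3′ UTR of its single exon and held no repeated string.

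The genes next in score included regulators of mRNA stability, NF-kB signalling and chromatin. Zfp36l2, an RNA-binding protein that promotes decay of AU-rich mRNAs, had a peak of score 2213.28 wholly within its 3′ UTR (chr17:84184879-84185415), together with a promoter peak of 656.61 in the same gene. Its relative Zfp36 had a peak of 1679.88 with 654 of 748 bases in the 3′ UTR (chr7:28376690-28377437). Tnfaip3, which encodes the ubiquitin-editing enzyme A20 that restrains NF-kB, had a peak of 1720.66 across the end of its last exon (chr10:19000588-19001124), with 215 exonic bases of 537. The Satb1 peak shown above, in the last of 11 exons of this chromatin organiser of thymocytes, scored 1886.78, while the commonest score of peaks 255 bp wide was 923.51.

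Coding peaks of high score included Psmb8, an immunoproteasome subunit, at 1751.25. Tnk2, a non-receptor tyrosine kinase, scored 1738.28 against 1330.12 as the commonest score at its width. The score was 1648.31 over the last exon of Nme1, a nucleoside diphosphate kinase, and 1488.63 over that of Atp5d, a subunit of mitochondrial ATP synthase. These 4 genes also had a promoter peak. Dhx9, an RNA helicase, scored 1364.89 at exon 15 of 28. The predicted gene 4933424G06Rik scored 1586.67 at an internal exon of 87 bp.

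Among peaks on 3′ UTRs, Star, which carries cholesterol into mitochondria for steroid synthesis, scored 1501.39 and lay wholly in the last exon, and Coro1c, an actin-binding protein, scored 1358.65. The peak of 1873.33 assigned to 9930022D16Rik held only 15 exonic bases and was centred beyond the end of the gene. The highest scores on other transcripts were 1381.40 at Sppl3, an intramembrane protease, 1255.96 at Adarb2, an RNA-editing enzyme family member, 1163.55 at Nedd4l, a ubiquitin ligase, 1121.74 at Sgms1, a sphingomyelin synthase, and 1095.63 at Actr8, an actin-related protein. Adarb2 lay below the commonest score at its width, 1330.12, and Nedd4l and Actr8 had exactly that of theirs. At the widths of Sppl3 and Sgms1 the list held no commonest score. On 5′ UTRs the highest was 1596.99 at B430305J03Rik, a peak of 70.0% GC that also overlapped an exon of Rap2b.

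The exonic peaks lay over exons of 288 protein-coding genes by name, 1.31% of the 21911 in the annotation, and 296 of the 300 touched a single gene. A promoter peak was also present in 41 of the 288 genes (14.2%, Wilson 95% interval 10.7% to 18.7%), against 5.16% of all protein-coding genes and 9.61% of genes with an intronic peak. A gene with more annotated transcript starts has more promoter windows. The shares were not adjusted for this, so no link between exonic and promoter peaks can be read from them. The genes with both kinds included Lef1, Il12rb2, Nr4a1, Tnfaip3, Zfp36l2, Ddx5, Hnrnpu, Srsf6 and Ctbp1. Cd69, an early activation receptor that retains thymocytes, and Selplg, an adhesion ligand for selectins, also had both and were singled out after their values were seen. In some of these genes the promoter peak lay far into the gene, at the start of a later transcript. At Ctbp1 its midpoint was 26623 bp into a gene of 27272 bp, and at Il12rb2 36610 bp into 84871 bp. At Hnrnpu and Srsf6 its midpoint was 330 and 58 bp from the gene start.

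Of 54 regulators of the T lineage, 10 had an exonic peak (18.5%), against 1.31% of all genes. A promoter peak was found at 16 of them, against 5.16% of all genes. This list and those below were drawn up with earlier results of these data known. No excess over all genes can therefore be read from their shares. Bcl11b, required for commitment to the T lineage, had a peak of 665.02 in the 3′ UTR of its last exon, 92.5 kb from the nearest protein-coding start. Lef1, an HMG-box factor that partners beta-catenin, had one of 697.74 on an exon of the other transcript part. Ikzf2, which encodes Helios, had one of 615.27, also on such an exon. Bcl11b and Lef1 were also the 2 of 31 Notch target genes with an exonic peak (6.45%), too few to set against the 1.31% of all genes. Promoter peaks were found at 6 of these 31 genes (19.4%, against 5.16% of all genes).

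The 3′ UTR peaks of this list further included Tcf12, an E protein, at 812.99, and Myb, a regulator of thymocyte survival, at 625.37, each with a GTGGGAA string shown above. Foxp1, a forkhead factor that keeps T cells quiescent, had a coding peak of 635.16 over its exon 14 of 18. Nr4a1, an orphan nuclear receptor induced by T cell receptor signals, had exonic peaks of 817.05 and 686.48. With Satb1, Zfp36 and Zfp36l2 above, scores in this list ran between 615.27 and 2213.28, and 6 of the 11 exonic peaks lay below the median of all nuclear peaks.

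Genes of cytokine signalling and NF-kB had exonic peaks in 5 of 47 (10.6%, against 1.31% of all genes) and promoter peaks in 14 (29.8%, against 5.16%). Il6ra, a chain of the interleukin-6 receptor, had peaks of 724.20 and 631.70 in its last exon. Socs1, a feedback inhibitor of cytokine receptors, had one of 1042.39 wholly in its 3′ UTR. Il12rb2, a chain of the interleukin-12 receptor, had the coding peak of 859.16 shown above. Jak1, a receptor-associated kinase, had one of 479.44 that touched 33 bases of a 5′ UTR.

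Of 51 splicing and RNA-binding genes, 5 had an exonic peak (9.80%, against 1.31% of all genes) and 19 a promoter peak (37.3%, against 5.16%). Hnrnpu, a nuclear RNA-binding protein, had one of 1147.42, Ddx5, an RNA helicase, one of 847.08, and Srsf6, a serine- and arginine-rich splicing factor, one of 706.37, all 3 wholly within a 3′ UTR. Ptbp3, of the polypyrimidine tract binding family, had one of 580.60, also in a 3′ UTR, and Tra2a, a splicing activator, one of 688.60 on an exon of the other transcript part.

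The other lists held 2 or fewer genes with an exonic peak each, too few to set against the 1.31% of all genes. In 2 of 68 chromatin regulators (2.94%), Kdm6b, a demethylase of H3K27, had a peak of 662.18 touching 69 bases of a 5′ UTR, and Kdm1a, a demethylase of H3K4, had one of 811.87 touching 5 coding bases. Among genes of T cell receptor signalling, the Ras activator Sos1 had one of 660.83. In 1 of 54 Notch pathway genes (1.85%), Ctbp1, a corepressor, had one of 1108.55 in its 3′ UTR. No replication, myeloid, liver or neuron gene had an exonic peak, of 35, 24, 24 and 24 genes. Of 19 B cell genes, 1 (5.26%), Blk, had the peak with 3 exonic bases. In 2 of 24 stromal genes (8.33%), Pdgfrb had one of 678.52 and Col3a1 one of 739.71, and 0 of the 24 had a promoter peak. The peak list holds no expression, so the labelled cell type could not be checked against markers beyond these counts.

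By symbol family, 8 of 468 zinc finger genes had an exonic peak, as did 6 of 385 solute carriers. The counts were 4 of 1134 olfactory receptors (0.353%), 1 of 330 vomeronasal receptors (0.303%), 1 of 67 histones (1.49%) and 1 of 68 protocadherins (1.47%). For cytosolic ribosomal proteins the count was 0 of 102, although 13 of them had a promoter peak (12.7%, against 5.16% of all genes). The shares of zinc finger genes and solute carriers, 1.71% and 1.56%, were near the 1.31% of all genes.

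In 15 genes, 2 or more exonic peaks were found. Tnfaip3 had 3 in its last exon, with scores of 945.84, 574.08 and 1720.66 in the direction of transcription, and 3 promoter peaks of 639.38 to 866.67. Rgs2, a regulator of G protein signalling, had 2 in its last exon, of 709.93 and 1149.62, and a promoter peak of 1228.60. Btg1, an antiproliferative gene, had 2 in its 3′ UTR, of 884.91 and 681.75, and no other peak. Nr4a1 had 7 peaks in all, of which 4 were at promoters, 1 was intronic and 2 were exonic, one over exon 2 and one over the last exon.

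**Figure D4:**
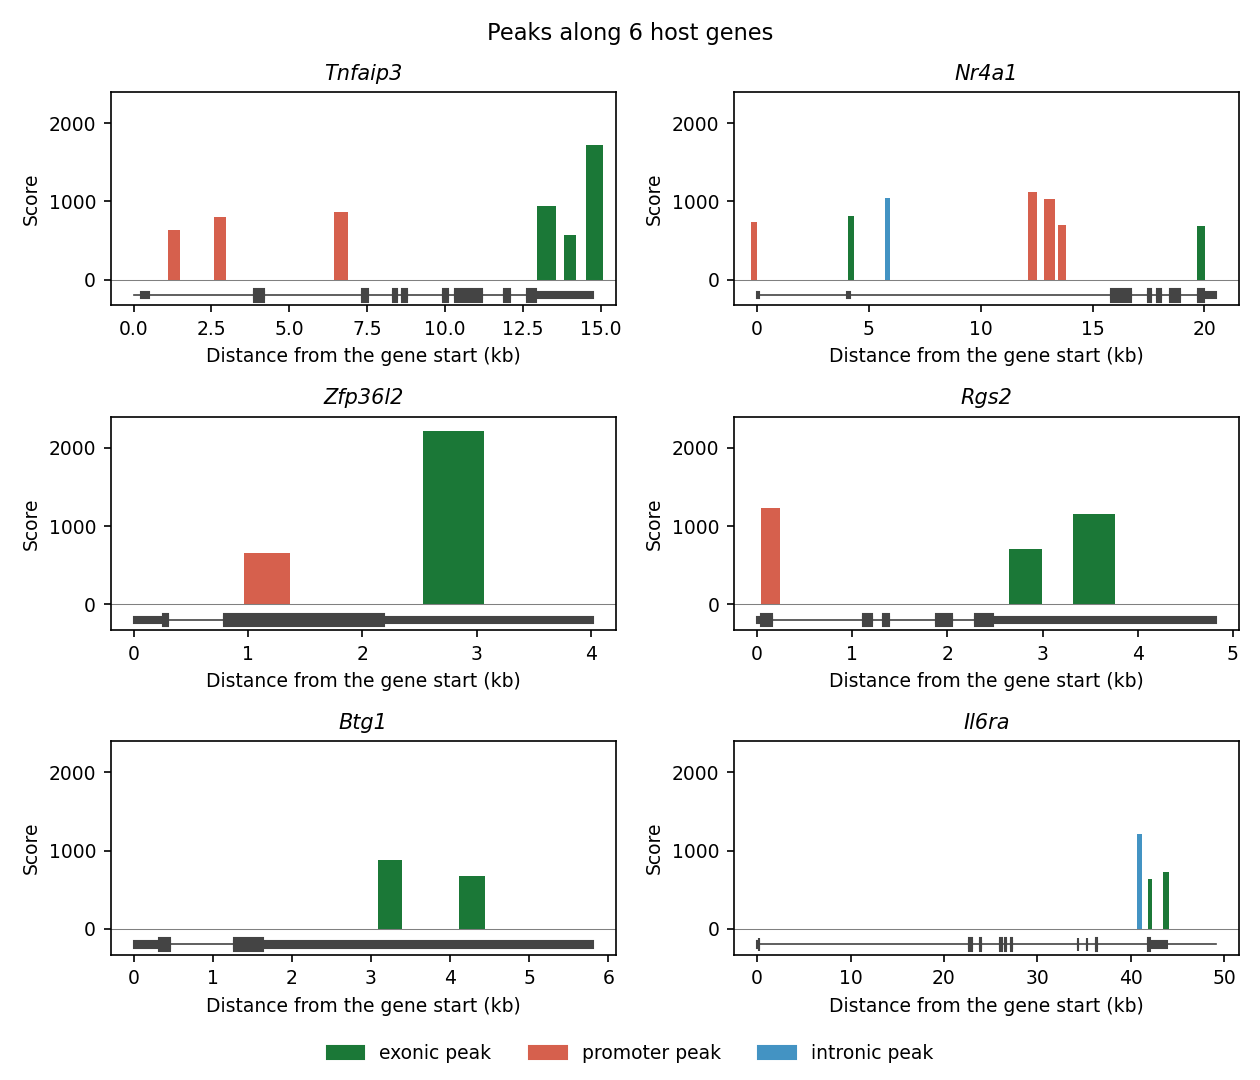
Score of each peak (bar height, linear axis) against distance from the start of the gene in kb for Tnfaip3, Nr4a1, Zfp36l2, Rgs2, Btg1 and Il6ra, with exonic peaks in green, promoter peaks in red and intronic peaks in blue. Bar width is the peak width, or 0.8% of the gene length where that is larger; the line below each panel is the principal transcript, thick where coding. In Tnfaip3, Zfp36l2, Rgs2, Btg1 and Il6ra the exonic peaks lie over the last exon.

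Trib1, a pseudokinase, had exonic peaks of 1102.93 and 686.90, both on a 3′ UTR that the principal transcript does not use. Bend4, with a BEN domain, had peaks of 1263.32 and 621.91 in its last exon. H3f3a, which encodes histone H3.3, had one of 712.62 at a 5′ UTR and one of 698.78 in its last exon. Tnrc6b, a scaffold of microRNA silencing, had one of 655.03 at a coding exon and one of 638.68 in its 3′ UTR. St8sia4, a polysialic acid synthase, had peaks of 1224.27 and 645.95. Zcchc7, an RNA surveillance factor, had one of 891.68 at a 5′ UTR and one of 553.85 in coding sequence. Tmem267 had 2 of low score, 378.75 and 173.55, and so had Ugt1a7c, an enzyme of glucuronidation, at 327.74 and 174.63. The pair of 9930022D16Rik scored 555.52 and 1873.33.

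Sfi1, a centrin-binding protein of the centrosome, stood apart with 9 exonic peaks among 39 peaks in the gene, 20 of them at promoters. Its exonic scores ran between 111.42 and 571.76, all below the lower quartile of the list at 644.82, and widths ran between 380 and 1739 bp. Repeated 32-base strings made up 25.9%, 21.9%, 17.5% and 15.5% of 4 of these peaks, and most of these strings had another copy on chromosome 5. Chromosome 11, which carries Sfi1, held 41 exonic peaks (13.7%), against 7.99% of all nuclear peaks. The part that repeated sequence has in these peaks was not tested.

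Repeated sequence was less common in exonic than in intronic and intergenic peaks, and near its level in promoter peaks. At least 1 repeated 32-base string was found in 61 exonic peaks (20.3%, Wilson 95% interval 16.2% to 25.2%), against 21.7% of promoter, 28.8% of intronic, 31.8% of intergenic and 28.3% of all nuclear peaks. Repeated strings made up 10% or more of 13 exonic peaks (4.33%), against 7.33% of promoter, 8.81% of intronic, 11.1% of intergenic and 9.27% of all nuclear peaks. The median soft-masked share was 11.9%, against 9.40% at promoters, 17.2% in introns and 15.5% over all nuclear peaks. At least 50% was soft-masked in 12 exonic peaks (4%), against 5.29% of promoter, 10.4% of intronic and 9.32% of all nuclear peaks. The largest repeated shares were 32.4% at Vmn1r229, a vomeronasal receptor gene, 30.9% at Cpne7, a calcium-dependent membrane-binding protein, and 29.6% at Gm10801. Smarcad1, a chromatin remodeller, had 20.9%, Dtl, a ubiquitin ligase subunit, 18.2%, and Tspan32, a tetraspanin, 18.1%.

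Exonic peaks resembled intronic more than promoter peaks in base composition. Their median GC content was 44.1%, against 52.5% at promoters, 43.1% in introns and 43.9% over all nuclear peaks. The ratio of observed to predicted CpG had a median of 0.250, against 0.571 at promoters and 0.176 in introns. By part, GC was 46.3% on coding sequence, 43.4% on 3′ UTRs, 42.6% on other transcripts and 41.9% on 5′ UTRs.

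The RBPJ core TGGGAA, sought on either strand, was held by 86 exonic peaks (28.7%, Wilson 95% interval 23.8% to 34.0%), against 29.5% of all nuclear peaks. The reversed string AAGGGT, which has the same bases but is not an RBPJ site, was held by 49 (16.3%), against 15.9% of all nuclear peaks. By part the core was held by 40 of 126 peaks on 3′ UTRs (31.7%), 28 of 123 on coding sequence (22.8%), 17 of 43 on other transcripts (39.5%) and 1 of 8 on 5′ UTRs. Every GTGGGAA also holds TGGGAA, so the counts overlap. In the central 200 bp, where length is equal, the core was found in 16.3% of exonic peaks and 17.0% of all nuclear peaks, and the longer string in 5.00% and 4.20%.

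Strings of other T cell factors were sought on both strands in the same way, and most were found at shares near those of the list. The RUNX string TGTGGTT was held by 39 exonic peaks (13.0%), against 10% of all nuclear peaks, and the E protein string CAGCTG by 54 (18.0%), against 15.6%. The GATA string AGATAA was held by 65 (21.7%), against 20.7%, and the AP-1 string TGANTCA by 29 (9.67%), against 11.3%. Strings rich in G and C differed from promoters: GGGCGG, bound by SP and KLF factors, was held by 16 exonic peaks (5.33%), against 35.5% at promoters, 4.93% in introns, 5.65% between genes and 11.3% of all nuclear peaks. The ETS string CCGGAA was held by 17 (5.67%), against 20.7% at promoters, 3.41% in introns and 7.39% of all nuclear peaks, and the NRF1 string TGCGCA by 6 (2%), against 8.78% at promoters, 2.62% in introns and 3.55% of all nuclear peaks.

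The remaining strings gave the same picture. The E-box CACGTG of HES and MYC factors was held by 19 exonic peaks (6.33%), against 5.62% of all nuclear peaks. HES proteins are classic products of Notch target genes. The STAT string TTCNNNGAA was held by 32 (10.7%), against 11.4%, and the TCF and LEF string CTTTGAA by 28 (9.33%), against 9.86%. The CTCF core AGGGGGC was held by 16 (5.33%), against 11.3% at promoters, 4.25% in introns, 3.83% between genes and 5.52% of all nuclear peaks. The NF-kB string, a palindromic consensus that can overlap the RBPJ core, was held by 3 (1%), against 1.08%.

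**Figure D5:**
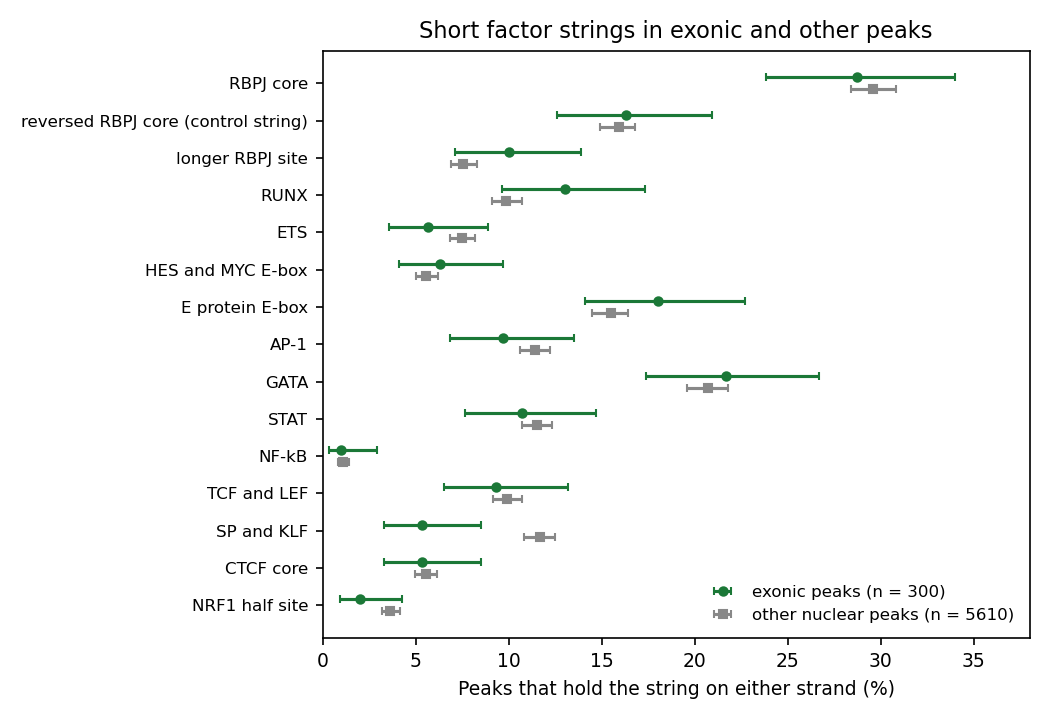
Share in percent of exonic peaks (green circles, n = 300) and other nuclear peaks (grey squares, n = 5610) that hold each string on either strand, with Wilson 95% intervals. The intervals overlap for all strings shown but that of SP and KLF, at 5.33% in exonic peaks; the other peaks include promoter peaks, at 35.5%, while intronic and intergenic peaks held it at 4.93% and 5.65%.

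The AU-rich string TATTTAT, the element that ZFP36 proteins bind in mRNA, was sought because of the peaks at Zfp36 and Zfp36l2, after their values were seen. On the sense strand it was held by 12 of 126 peaks on 3′ UTRs (9.52%, Wilson 95% interval 5.53% to 15.9%), and on the opposite strand by 14 (11.1%). The 12 peaks included those of Zfp36l2, Tnfaip3, Zfp36, Ddx5, Tcf12, Bcl11b and Mcl1, a survival factor of the BCL2 family. The Zfp36 peak held 3 matches. The string was no more frequent on the strand of the mRNA than on the other.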

How the data were processed

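One peak list of 1 Notch1 ChIP-seq library was analysed. Per the labels' protocols, chromatin was fixed with 0.5% formaldehyde for 5 min, sonicated and enzymatically digested, and libraries were amplified by 18 PCR cycles. Bowtie 1.0.0, SAMtools 0.1.18 and build mm10 are named in the submitters' processing notes. The deposited list gives the position, name and score of 5913 peaks, of which 3 are mitochondrial. The score is the authors' own value, which served here only for description, ranking and filters within the list. Peak names begin with MACS. Its version and settings, any use of the input, duplicate handling and depth were not given in the sources used here. Stacks of duplicate reads cannot be seen in a peak list.

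Positions are counted from 1. Coding and UTR bases came from protein-coding transcripts, with priority to coding, then 5′ UTR, then 3′ UTR, and a peak's part was its longest overlap. The principal transcript was the one with the best APPRIS tag, then the longest coding sequence. Strings were sought on both strands, and 32-base strings were counted over all nuclear chromosomes of the RefSeq GRCm38 assembly. Shares carry Wilson 95% intervals, and no p-value was computed. Classification and string search were tested on simulated data. The work used Python 3.11.15, numpy 2.4.6, numba 0.67.0 and matplotlib 3.10.9.

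The peaks, 13 gene lists, 7 symbol families and 15 strings were chosen with earlier results of these data known. Named were the 20 peaks of highest score, every listed gene with an exonic peak, genes with 2 or more such peaks, the 5 of highest score in each part, the 8 of highest score with GTGGGAA and the 8 with most repeated strings. Some are given by count only, and 1 gene that the rule takes is not reported here. Sequences shown beyond these were chosen after their values were seen.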

Additional observations from a re-analysis of the deposited data

How the results depend on the processing

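Of 109 values under alternative settings, 86 stayed within the interval of the reported value (or, for the count, within 1.5 times). The count of 300 fell to 160 with a promoter window of 5 kb, 194 where the midpoint had to be exonic, 174 where 50% of the peak had to be, 142 and 80 at or above the median and in the upper quartile of score, and 192 without peaks with repeat sequence. The coding share of 41.0% was 55.7% with transcripts of the protein-coding type only, 25.8% by midpoint and 18.4% with 50% exonic, and the 3′ UTR share of 42.0% was 53.6% and 60.3% under the last pair. The share in a last exon, 39.3%, was 48.5% and 54.0% under the same pair. The share within 5 kb of a start, 46.7%, was 54.8%, 34.4% and 0% with windows of 500 bp, 2 kb and 5 kb, and 54.7% with protein-coding transcripts. The median score of 711 was 947.69 and 1098.19 in the score subsets, as their construction fixes, and 745.00 without repeat sequence, where the share with a repeated string is 0% by construction. The median GC was 46.4% in the upper score quartile, and the RBPJ core was held by 16.3% in the central 200 bp. The causes of the other differences were not tested. Chosen after seeing the data were the removal of Sfi1 and Gm10801, which left 290 peaks, and added RefSeq starts, which left 288, and neither moved any of these values beyond its interval. No paired analysis was possible because there was 1 Notch1 library and no test. Depth is unknown.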
